A study of Mus musculus with 2 samples.

Results

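Prdm16, its paralogue Mecom and 5 genes of the nuclear proteins that work with PRDM16 (Ebf2, Ehmt1, Ctbp1, Ctbp2 and Med1) were followed across the cell types of mesenteric perivascular fat. They were taken by gene symbol, and all 7 were found among the 32285 genes of both count matrices. Nuclear RNA was counted by droplet single-nucleus sequencing in 2 libraries from mice aged 11 weeks. The flox control library came from the genotype written Prdm16flox. The other library, labelled Prdm16 cKO, came from the genotype written Prdm16flox, AdopiQCre+, so floxed Prdm16 alleles were shared by both groups. The transgene expresses Cre recombinase under the adiponectin promoter, which is active in adipocytes and is not meant to act in endothelial, mural or epithelial cells. The labels give neither the floxed exon nor the number of animals in a library. The control gave 10532 kept nuclei with 92779065 unique molecular identifiers (UMIs, each standing for 1 captured transcript) and the cKO-labelled library 7374 nuclei with 62275986 UMIs. With 1 library per genotype, a difference compares 2 libraries and has no replicate check. All intervals are 95% intervals that cover counting error only.

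PRDM16 is a zinc-finger protein with a PR domain that drives the brown and beige programme of fat cells and holds back muscle and white fat genes. It works through partners. EBF2 marks brown and beige fat genes for PPARγ and PRDM16, the histone H3K9 methyltransferase EHMT1 stabilises it, CTBP1 and CTBP2 are corepressors, and MED1 is the Mediator subunit through which nuclear receptors and PRDM16 reach RNA polymerase II. MECOM, also called EVI1 or PRDM3, is the closest relative of PRDM16, known from blood stem cells and from endothelium, and PRDM16 itself is also known from arterial endothelium.

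The letters upstream of the Prdm16 and Mecom start sites are shown because these paralogues shared their highest class, described next. RefSeq windows (GRCm38.p6, 250 bases before to 50 bases from the start site on) were found for 6 of the 7 genes, all but Ebf2. The 250 bases before the start are printed 5′ to 3′ on the minus strand, for Prdm16 at chr4:154636874-154637123 and for the distal Mecom start at chr3:30509760-30510009. Capitals mark the longest run that both hold before the start, 10 bases.
Prdm16: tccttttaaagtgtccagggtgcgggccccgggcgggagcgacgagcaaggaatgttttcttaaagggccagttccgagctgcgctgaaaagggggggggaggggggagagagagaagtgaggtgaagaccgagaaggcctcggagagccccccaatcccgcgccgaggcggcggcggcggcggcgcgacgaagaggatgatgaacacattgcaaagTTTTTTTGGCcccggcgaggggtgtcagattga
Mecom distal start: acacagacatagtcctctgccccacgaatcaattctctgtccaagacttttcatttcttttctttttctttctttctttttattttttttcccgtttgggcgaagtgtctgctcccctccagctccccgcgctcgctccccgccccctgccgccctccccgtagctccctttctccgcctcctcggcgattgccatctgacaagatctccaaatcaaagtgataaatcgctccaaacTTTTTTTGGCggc
That run ended 24 bases before the Prdm16 start and 4 bases before the Mecom start, and 29 of 32851 windows (0.0883%) held it before the start on either strand. After the start sites the same 2 windows shared a run of 24 bases, bases 10 to 33 of Prdm16 and 27 to 50 of Mecom counted from the start as 1. No other gene among 27025 had that run in its window. The second Mecom window shared at most 7 bases in a row with the Prdm16 window. The counts are summed per gene and cannot tell which start was used.

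Prdm16 (ENSMUSG00000039410, minus strand of chr4, 154316125 to 154636873 in GENCODE M21 on GRCm38) is the targeted gene. Levels are given as CPM, the UMIs of a gene scaled to the total UMIs of the nuclei named. Prdm16 was at 29.7 (28.6 to 30.8) over all control nuclei, from 2756 UMIs, and 31.7 (30.3 to 33.1) over all cKO-labelled nuclei, from 1975. Adipocyte-like nuclei had 16.4 (15.4 to 17.5) in the control and 22.6 (21.1 to 24.1) in the library labelled Prdm16 cKO, so no lower level was seen there. These nuclei lay in 4 clusters that passed 7 to 11 of 12 adipocyte markers such as Adipoq and Plin1. A count per gene need not cover the deleted part of a transcript and cannot tell a shortened transcript from a full one. These values therefore leave the genotype labels unchecked. Genes on the opposite strand within Prdm16 had at most 2 UMIs in a library.

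Prdm16 was highest in arterial endothelial-like nuclei of both libraries. This was cluster 21, in which all 10 arterial markers (Gja5, Gja4, Sox17, Efnb2, Hey1, Dll4, Bmx, Sema3g, Jag1 and Fbln5) passed the naming rule. The level there was 1053 CPM (987 to 1122) from 947 UMIs in 93 control nuclei and 903 (806 to 1008) from 316 UMIs in 45 cKO-labelled nuclei. At least 1 Prdm16 UMI was found in 98.9% and 95.6% of those nuclei, with up to 51 and 42 in 1 nucleus. After thinning every nucleus to 1000 UMIs the shares were 59.1% (48.5 to 69.2%) and 72.7% (57.2 to 85%). In venous endothelial-like nuclei they were 1.77% (0.215 to 6.25%) and 1.49% (0.0378 to 8.04%), from only 2 and 1 nuclei with a UMI. Median depths were 8540 and 6184 UMIs in arterial and 5477 and 4699 in venous nuclei.

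Next in order came smooth muscle-like nuclei (Myh11, Acta2), with Prdm16 at 310 CPM (262 to 363) in 63 control and 343 (259 to 445) in 33 cKO-labelled nuclei. Pancreatic acinar-like nuclei (Cela1, Cpb1) had 247 (213 to 286) and 303 (272 to 335). In the few Schwann-like nuclei, 28 and 25, the levels were 299.7 (206 to 421) and 184 (114 to 281), and the acinar-like and Schwann-like classes changed places between libraries. The intervals of these 3 classes overlapped. Intestinal epithelial-like nuclei followed at 111 (92.5 to 133) and 131 (91.5 to 183), then capillary endothelial-like nuclei at 75.4 (60.4 to 93.0) and 43.1 (31.4 to 57.6). Each of these groups stood above the adipocyte-like level in both libraries. Pericyte-like nuclei had only 3 and 5 Prdm16 UMIs (8.65 and 17.0 CPM). Of the classes grouped as mural, the gene was thus counted mainly in smooth muscle-like nuclei. The smooth muscle markers that passed, Actg2 and Des among them, do not separate vessel-wall from gut-wall muscle. Which of these the nuclei came from was not tested. An unnamed cluster of low depth (cluster 3), which passed 8 of 12 adipocyte markers, had 31.1 (23.4 to 40.5) and 22.7 (17.7 to 28.5). The remaining classes, from 4.34 in progenitor or fibroblast-like nuclei to 34.4 in natural killer or innate lymphoid-like nuclei, overlapped one another in order. Over the 20 groups, the highest level was 243 times the lowest in the control and 149 times in the cKO-labelled library.

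**Figure D1:**
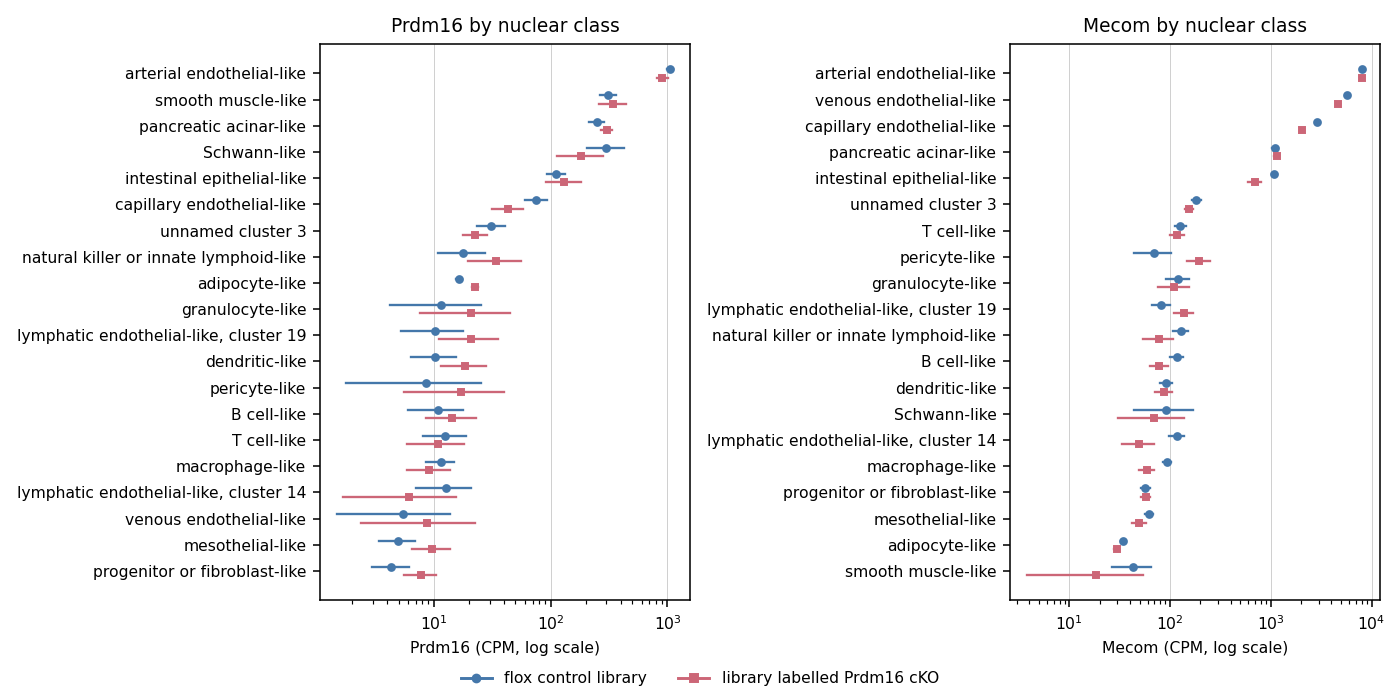
Levels of Prdm16 (left) and Mecom (right) in CPM on a log axis for each nuclear class, with the vascular and lymphatic endothelial clusters shown apart. Points are the libraries and lines are 95% Poisson intervals; Prdm16 stands at 1053 and 903 in arterial endothelial-like nuclei, and Mecom is high in all 3 vascular endothelial clusters.

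Few nuclei therefore held much of the Prdm16 RNA. Arterial endothelial-like nuclei were 0.883% of control nuclei and held 34.4% of Prdm16 UMIs, and in the cKO-labelled library 0.61% held 16.0%. Adipocyte-like nuclei were 41.3% and 39.3% of nuclei and held 34.1% and 43.6%. Pancreatic and intestinal epithelial-like nuclei held 11.0% and 20.5%, and smooth muscle-like and pericyte-like nuclei together 5.62% and 3.09%. The library with more acinar-like nuclei, 177 against 87, was the one with the larger epithelial share. Adipocyte-like nuclei held 61.8% and 61.3% of all UMIs, so their share of Prdm16 was below their share of RNA.

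**Figure D2:**
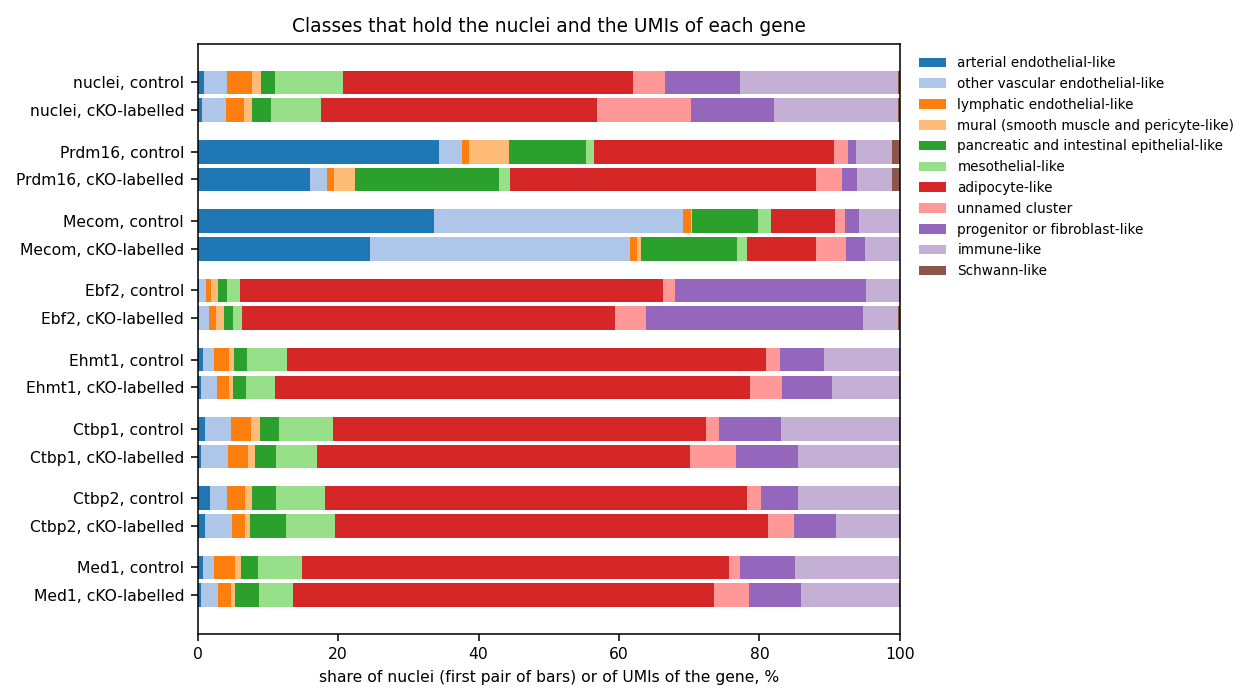
Stacked bars of the share (%) of kept nuclei (first pair) and of the UMIs of each gene that lay in each class, for the control and cKO-labelled library. Arterial endothelial-like nuclei are 0.883% of control nuclei but hold 34.4% of Prdm16 and 33.7% of Mecom UMIs. Control adipocyte-like nuclei, 41.3% of nuclei with 61.8% of all UMIs, hold 68.2% of Ehmt1, 53.2% of Ctbp1, 60.2% of Ctbp2 and 60.8% of Med1 UMIs.

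Pooled over vascular endothelial-like nuclei, Prdm16 was 372 CPM (350 to 395) for the control and 197 (178 to 219) for the cKO-labelled nuclei. On a log2 scale the cKO-labelled level relative to the control, called the ratio from here on, was −0.92 (−1.09 to −0.74). The arterial ratio alone was smaller, −0.22 (−0.41 to −0.037). It depended on processing, at 0.24 with nuclei thinned to 1000 UMIs and −0.97 at a clustering resolution of 0.5, where the arterial cluster was larger. When all vascular endothelial-like nuclei were clustered again by themselves, the arterial-like sub-clusters 2 (Hey2, Mgp) and 5 (Nebl, Dkk2) gave −0.21 (−0.41 to −0.006) and −0.24 (−0.70 to 0.20). Arterial nuclei were 93 of 446 vascular endothelial-like nuclei in the control (20.9%, 17.2 to 24.9%) and 45 of 292 in the other library (15.4%, 11.5 to 20.1%), and held 32.2% and 18.9% of the class's UMIs. With both libraries weighted to the cluster shares of the control, the pooled ratio was −0.26. Capillary cluster 13 gave −0.81 (−1.36 to −0.27), past 1.5-fold lower as were 8.01% of genes there, whereas the capillary-like sub-cluster 0 (Slc1a1, Car4) of the second clustering had 38.6 and 42.2 CPM and a ratio of 0.13 (−0.86 to 1.07).

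Of the 7 genes in pooled vascular endothelial-like nuclei, Prdm16 was past 1.5-fold lower, where 5.71% of 8676 genes were, and Ebf2 was past 1.5-fold higher, where 9.6% were. Only genes with at least 50 UMIs over both libraries were counted. Adipocyte RNA also differed here. The summed level of 12 adipocyte markers in these nuclei was 23.8% and 42.7% of its adipocyte-like level, the cKO-labelled value second, and in arterial nuclei 13.9% and 16.8%. With the adipocyte profile subtracted, the pooled ratio was −0.97 for Prdm16 and 0.24 for Ebf2, no longer past 1.5-fold for Ebf2. With nuclei thinned to 1000 UMIs neither was past it, at −0.17 (−0.62 to 0.28) for Prdm16 and 0.29 (−0.19 to 0.77) for Ebf2.

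**Figure D3:**
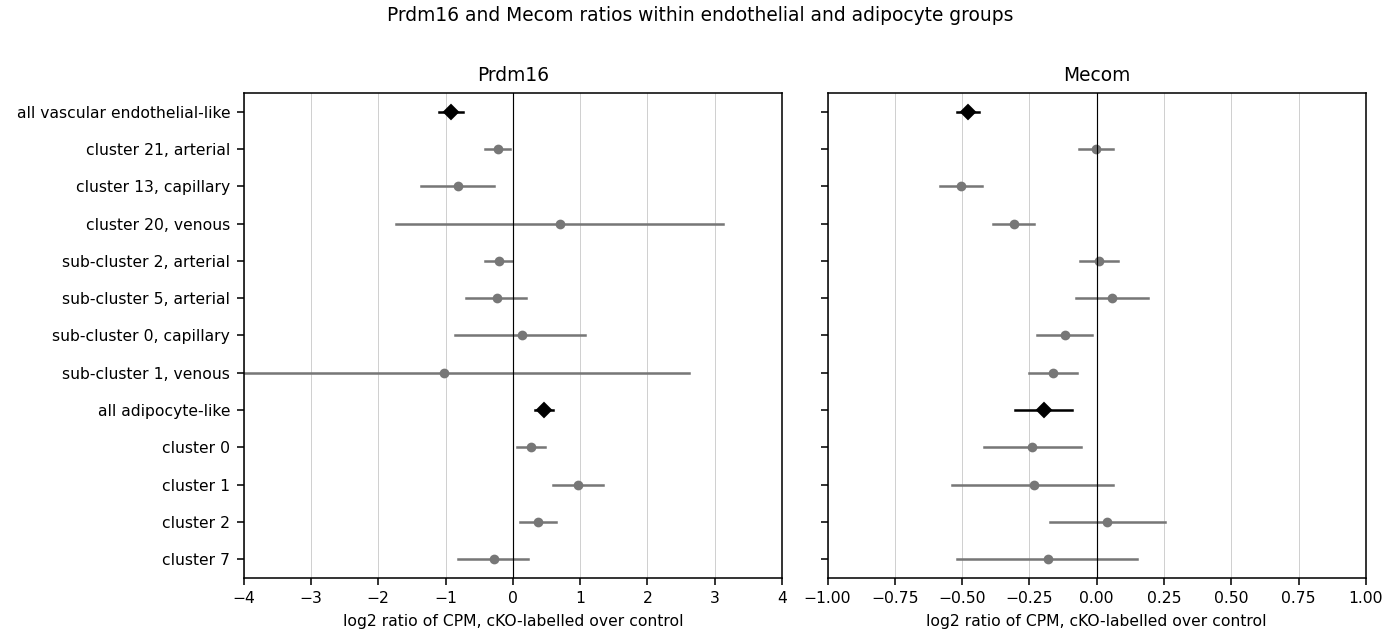
Log2 ratios (cKO-labelled library over control) of Prdm16 (left) and Mecom (right) for the pooled vascular endothelial-like and adipocyte-like classes (black diamonds) and the clusters and sub-clusters within them (grey points), with 95% counting intervals; the 2 axes differ in range, and intervals that reach past an axis are cut there. The pooled Prdm16 ratio of −0.92 lies below both arterial sub-clusters, and 3 of 4 adipocyte-like clusters lie above 0.

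In adipocyte-like nuclei Prdm16 was sparse. No UMI was found in 3837 of 4353 control and 2462 of 2895 cKO-labelled nuclei, 1 or 2 were found in 411 and 335, and 3 or more in 105 (2.41%) and 98 (3.39%). Those last nuclei held 46.4% and 51.1% of the Prdm16 UMIs of the class, with at most 8 and 12 in 1 nucleus. The variance over nuclei was 2.65 and 3.01 times the mean, against 1.17 and 1.10 for Ctbp1 at a like mean.

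The nuclei with 3 or more Prdm16 UMIs carried adipocyte markers at the level of the other adipocyte-like nuclei. All lay in clusters named by those markers, so this likeness was partly fixed by the naming. Their adipocyte marker sum was 8665 and 7727 CPM, beside 8615 and 7950 in nuclei with none. Their vascular endothelial marker sum was 61.0 and 64.4 CPM, beside 78.4 and 73.6, and 5 arterial markers (Gja5, Gja4, Sox17, Bmx and Dll4) summed to 4.77 and 3.64, from 9 and 7 UMIs, beside 3.80 and 4.07. Acinar markers summed to 26.5 and 151 beside 37.8 and 183, and smooth muscle markers to 116 and 52.5 beside 103 and 67.0. Ebf2 was higher in them, 874 and 694 CPM beside 489 and 480, while Mecom was 28.6 and 23.9 beside 34.0 and 29.8. They were also deeper, with median UMI counts of 16759 and 17131 beside 11893 and 11533. The part of depth in the Ebf2 values was not tested.

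How much Prdm16 other cells' RNA would add was computed from their markers. For 6 classes (vascular endothelial, smooth muscle, pericyte, acinar, intestinal and mesothelial), the median of each class's marker levels in adipocyte-like nuclei over those in the class itself was multiplied by the Prdm16 level of the class. The sum was 5.39 CPM of the 16.4 measured (32.9%) for the control, and 6.23 of 22.6 (27.6%) for the cKO-labelled nuclei. The vascular term was 3.02 and 1.92 CPM and the acinar term 0.649 and 3. Arterial markers with the arterial Prdm16 level would alone give 8.41 and 4.25 CPM. Schwann-like nuclei were left out of the sum, since their 3 usable markers stood at a median of 37.2% and 36.2% and would give 111 and 66.4 CPM, more than was measured. By the lowest marker of each class, the sum was 20.4% and 14.3%. About 11.0 and 16.3 CPM remained after the median-based sum. The same sum for Mecom was 164% and 176% of the measured level, so the remainder is a rough value only.

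The mean of Prdm16 was 0.216 (0.202 to 0.230) and 0.297 (0.278 to 0.318) UMIs per adipocyte-like nucleus. In progenitor or fibroblast-like nuclei it was 0.0276 (0.0187 to 0.0391) and 0.0484 (0.0349 to 0.0654), and in T cell-like nuclei 0.0638 and 0.0603. Depth differed, with median UMI counts of 12143 and 11855 in adipocyte-like and 5769 and 5572 in fibroblast-like nuclei. Unthinned, 11.9% and 15% of adipocyte-like nuclei had a Prdm16 UMI, beside 2.58% and 4.15% of fibroblast-like nuclei. Thinned to 1000 UMIs, leaving out 7 and 22 shallower adipocyte-like nuclei, the shares were 1.61% (1.26 to 2.03%) and 1.60% (1.17 to 2.13%). The fibroblast-like shares were then 0.622% (0.251 to 1.28%) and 0.828% (0.334 to 1.70%), with 0 and 23 shallower nuclei left out. The intervals of these classes overlapped after thinning. Unnamed cluster 3, which passed 8 of 12 adipocyte markers, had thinned shares of 2.94% (1.62 to 4.89%) and 2.30% (1.44 to 3.46%). Natural killer or innate lymphoid-like nuclei had 1.74% (0.476 to 4.39%) and 2.06% (0.251 to 7.25%), from only 4 and 2 nuclei with a UMI.

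The adipocyte-like log2 ratio of Prdm16 was 0.46 (0.33 to 0.60). It was 0.27 in cluster 0, 0.98 (0.60 to 1.34) in cluster 1 (12.2 and 24.0 CPM), 0.37 in cluster 2 and −0.28 (−0.81 to 0.22) in cluster 7. The libraries filled these clusters unequally. Cluster 2, led by the lipid synthesis genes Elovl6 and Acly, held 679 control and 1154 cKO-labelled nuclei, and cluster 1, led by Nnat and Tshr, held 1654 control but 270 cKO-labelled nuclei. None of the 7 genes was past 1.5-fold in adipocyte-like nuclei, where 8.86% of 15332 genes were. Prdm16 in cluster 1 was past it and higher, beside 6.46% of genes there, and no gene of the 7 was in clusters 0, 2 and 7, beside 6.91%, 8.56% and 8.74%. Thinned to 1000 UMIs, the Prdm16 ratio of the class was −0.17 (−0.72 to 0.37), from only 80 and 47 UMIs.

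Mecom (ENSMUSG00000027684, minus strand of chr3, 29951296 to 30548008) was highest in vascular endothelium. Its opposite-strand gene Mecomos had 43 and 26 UMIs. Arterial endothelial-like nuclei had 8034 CPM (7850 to 8221) in the control and 8015 (7721 to 8317) under the cKO label, and every one of the 93 and 45 nuclei held at least 3 UMIs. Venous nuclei (cluster 20) had 5753 (5582 to 5929) and 4646 (4450 to 4848), and capillary nuclei 2881 (2784 to 2980) and 2030 (1945 to 2119). These 3 kept their order in both libraries without overlap, and all stood above every other class. Lymphatic endothelial-like nuclei, by contrast, had 99.5 (87.2 to 113) and 92.4 (76.5 to 110.5), in the range of immune classes.

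Mecom and Prdm16 thus shared the arterial peak but not the vein. In venous nuclei Prdm16 had 4 UMIs in each library while Mecom had 4250 and 2120. The smooth muscle was the reverse case, with 21 and 3 Mecom UMIs beside 152 and 56 of Prdm16. Both genes were present in epithelium. Mecom was 1103 (1029 to 1182) and 1140 (1081 to 1202) CPM in acinar-like nuclei and 1087 (1026 to 1150) and 694 (598 to 802) in intestinal epithelial-like nuclei. In pericyte-like nuclei Mecom had 24 and 57 UMIs, and 39 of the 57 lay in 1 nucleus. Of all Mecom UMIs, arterial nuclei held 33.7% and 24.5%, other vascular endothelial-like nuclei 35.4% and 37.0%, epithelial nuclei 9.33% and 13.8%, and adipocyte-like nuclei 9.05% and 9.80%.

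Between libraries the arterial Mecom ratio was −0.003 (−0.067 to 0.060). The venous ratio was −0.31 and the capillary ratio −0.51, and sub-clusters 1 (venous) and 0 (capillary) gave −0.16 and −0.12. Pooled vascular endothelial-like nuclei had 5301 (5216 to 5387) and 3807 (3719 to 3897) CPM, a ratio of −0.48 (−0.52 to −0.44), which was −0.19 at the cluster shares of the control. Leaving out sub-clusters 3 and 6, led by adipocyte and macrophage genes and holding 16 and 15 control but 47 and 6 cKO-labelled nuclei, it was −0.12.

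Adipocyte-like nuclei had 33.8 CPM of Mecom (32.3 to 35.3) and 29.5 (27.8 to 31.2), the lowest class in the control and next to lowest in the other library. The same sum over 6 classes gave 55.2 and 51.8 CPM, 164% and 176% of what was measured, and by the lowest markers 122% and 107%. The vascular endothelial term alone, 43.1 and 37.1 CPM, was above the measured level. Per nucleus, Mecom was 0.445 (0.425 to 0.465) and 0.388 (0.366 to 0.412) UMIs in adipocyte-like nuclei. It was 0.362 (0.327 to 0.399) and 0.356 (0.317 to 0.398) in fibroblast-like nuclei, and higher, 0.641 (0.563 to 0.727) and 0.659 (0.559 to 0.773), in T cell-like nuclei. Vascular endothelial-like nuclei had 33.2 and 24.1. The adipocyte-like Mecom ratio was −0.20 (−0.30 to −0.090), and at 1000 UMIs a nucleus it was 0.12.

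**Figure D4:**
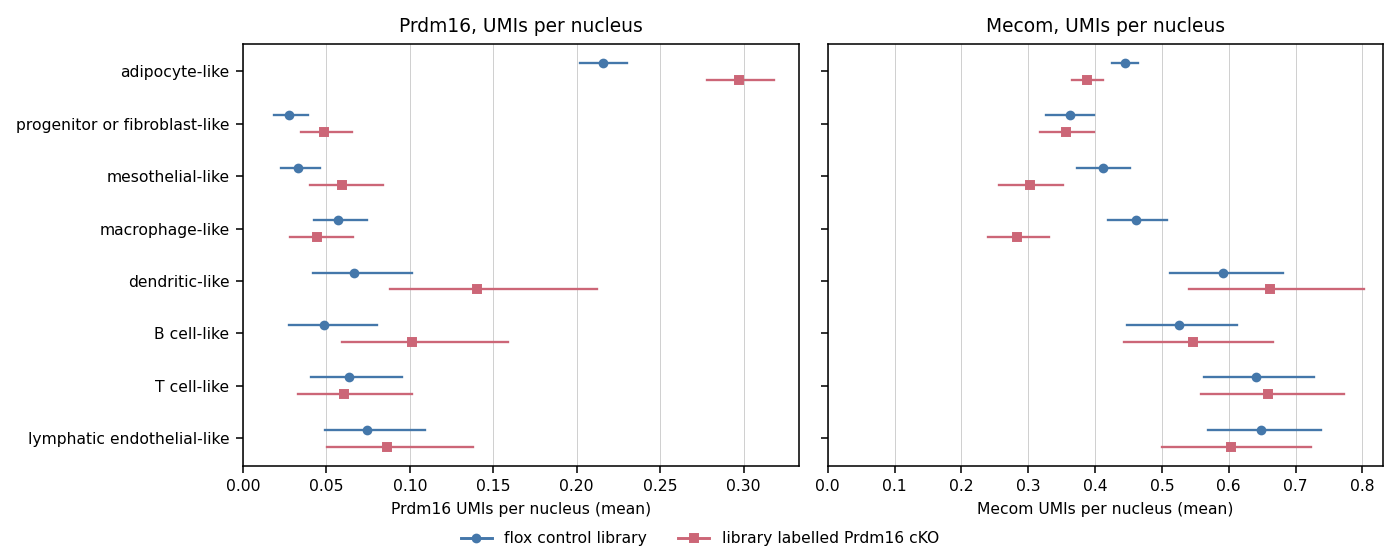
Mean UMIs per nucleus of Prdm16 (left) and Mecom (right) in adipocyte-like nuclei and several other classes, with 95% Poisson intervals, for the control and cKO-labelled library. Adipocyte-like nuclei, the deepest class (median 12143 and 11855 UMIs), have the highest Prdm16 mean shown (0.216 and 0.297), while their Mecom mean (0.445 and 0.388) lies among the other classes.

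Among smaller Mecom differences, macrophage-like nuclei had 92.6 and 58.5 CPM, a ratio of −0.66 (−0.94 to −0.39) and past 1.5-fold lower, as were 2.4% of genes. The vascular markers in those nuclei, by their median, would give 143 and 85 CPM of Mecom. Of 437 control UMIs, 63 lay in the 16 nuclei of cluster 28. Without it, macrophage cluster 4 had 81.6 and 59.2 CPM and a ratio of −0.46 (−0.75 to −0.18), not past 1.5-fold.

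Ebf2 (ENSMUSG00000022053, plus strand of chr14, 67233292 to 67430918) had another pattern, with its highest level in progenitor or fibroblast-like nuclei, 1868 CPM (1836 to 1900) and 2079 (2041 to 2118). Cluster 9 reached 3000 (2930 to 3072) and 3329 (3242 to 3419). Pericyte-like nuclei had 1225 (1112 to 1347) and 1109 (991 to 1236). The 2 classes grouped as mural thus differed in this gene too, in the opposite direction from Prdm16. Adipocyte-like nuclei had 516 (510.1 to 522) and 505 (498 to 512) and held 60.3% and 53.1% of all Ebf2 UMIs. Their ratio was −0.031 (−0.057 to −0.005), within a range of −0.10 to 0.12 over the 4 adipocyte-like clusters. Arterial endothelial-like nuclei, highest for Prdm16 and Mecom, were lowest for Ebf2, at 85.6 (67.6 to 107) and 143 (106 to 188), in the cKO-labelled library not apart from mesothelial-like nuclei (145). Genes on the opposite strand of Ebf2 had up to 453 and 431 UMIs.

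Ebf2 was past 1.5-fold higher in the cKO-labelled library in several classes with low levels. The ratio was 0.61 (0.44 to 0.78) in vascular endothelial-like nuclei. It was 0.78 (0.56 to 1.006) in B cell-like nuclei, where 8.98% of genes were past it in that direction, 1.09 (0.88 to 1.31) in dendritic-like (9.07%) and 0.84 (0.62 to 1.05) in lymphatic endothelial-like nuclei (7.17%). No gene of the 5 with enough UMIs was past it in T cell-like nuclei, beside 11.8% in either direction. Adipocyte marker RNA in B cell-like nuclei was 27.7% and 46.3% of its adipocyte-like level, and in dendritic-like nuclei 23.5% and 37.7%. Multiplied by adipocyte Ebf2, the median markers would give 143 and 229 CPM in B cell-like nuclei (199 and 342 measured) and 121 and 194 in dendritic-like nuclei (147 and 314 measured). With the adipocyte profile subtracted, the ratio was larger, 0.95 in B cell-like, 2.27 in dendritic-like and 1.62 in lymphatic endothelial-like nuclei. Thinned to 1000 UMIs, it was 0.30 in both B cell-like and dendritic-like nuclei, no longer past 1.5-fold, and 1.21 in lymphatic endothelial-like nuclei. In smooth muscle-like nuclei Ebf2 was 145 (113 to 182) from 71 UMIs and 704 (581 to 845) from 115, too few nuclei for a ratio by the minimum of 100. Adipocyte marker RNA there was 17.8% and 39.5% of its adipocyte-like level.

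The H3K9 methyltransferase gene Ehmt1 (minus strand of chr2, 24789928 to 24919614) was the most even of the 7. It ranged from 227 and 234 CPM in granulocyte-like nuclei to 397 (392 to 403) and 417 (411 to 424) in adipocyte-like nuclei, 1.75-fold and 1.79-fold. This measure of evenness also depends on counting error in sparser genes. The lowest Ctbp1 levels, in Schwann-like nuclei, came from only 2 and 1 UMIs. The adipocyte-like ratio was 0.070 (0.041 to 0.099), where the median of all genes was 0.035. In vascular endothelial-like nuclei the levels were 275 (256 to 295) and 356 (329 to 384), a ratio of 0.37 (0.22 to 0.53), which was −0.020 once the adipocyte profile was subtracted.

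Of the corepressors, Ctbp1 (minus strand of chr5, 33247723 to 33274994) had 18.7 (17.6 to 19.9) and 19.7 (18.4 to 21.2) CPM in adipocyte-like nuclei, a ratio of 0.076 (−0.060 to 0.21). Higher levels were found in vascular endothelial-like nuclei, 34.8 (28.2 to 42.4) and 33.0 (25.2 to 42.3). Ctbp2 (minus strand of chr7, 132987563 to 133124354) had 11.1 (10.3 to 12.0) and 13.6 (12.4 to 14.8) in adipocyte-like nuclei, a ratio of 0.28 (0.11 to 0.45). It overlaps Fgfr2 on the same strand, which had 13327 and 8848 UMIs. Reads in the overlap may therefore be missing from the Ctbp2 count or misassigned, which was not tested. In mesothelial-like nuclei Ctbp2 was 11.0 (8.62 to 13.8) and 18.3 (14.0 to 23.6), a ratio of 0.74 (0.22 to 1.25). Both Ctbp2 and Prdm16 (4.90 and 9.63 CPM, from 33 and 31 UMIs) were past 1.5-fold higher there, beside 4.95% of genes, and Prdm16 was in progenitor or fibroblast-like nuclei (4.34 and 7.77, from 31 and 42 UMIs), beside 5.03%. The median adipocyte markers would give 3.16 and 5.27 CPM of Prdm16 in mesothelial-like and 3.09 and 5.02 in fibroblast-like nuclei. Med1 (minus strand of chr11, 98152154 to 98193293) was highest in B cell-like nuclei, 86.1 (71.4 to 103) and 87.3 (71.7 to 105), and T cell-like nuclei, 80.6 and 87.4. Intestinal epithelial-like nuclei had 66.7 and 78.8 and acinar-like nuclei 65.6 and 79.3. The cKO-labelled values of both lay within the B cell-like interval. Adipocyte-like nuclei had 54.2 (52.3 to 56.1) and 56.4 (54.1 to 58.9), a ratio of 0.060 (−0.020 to 0.14).

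**Figure D5:**
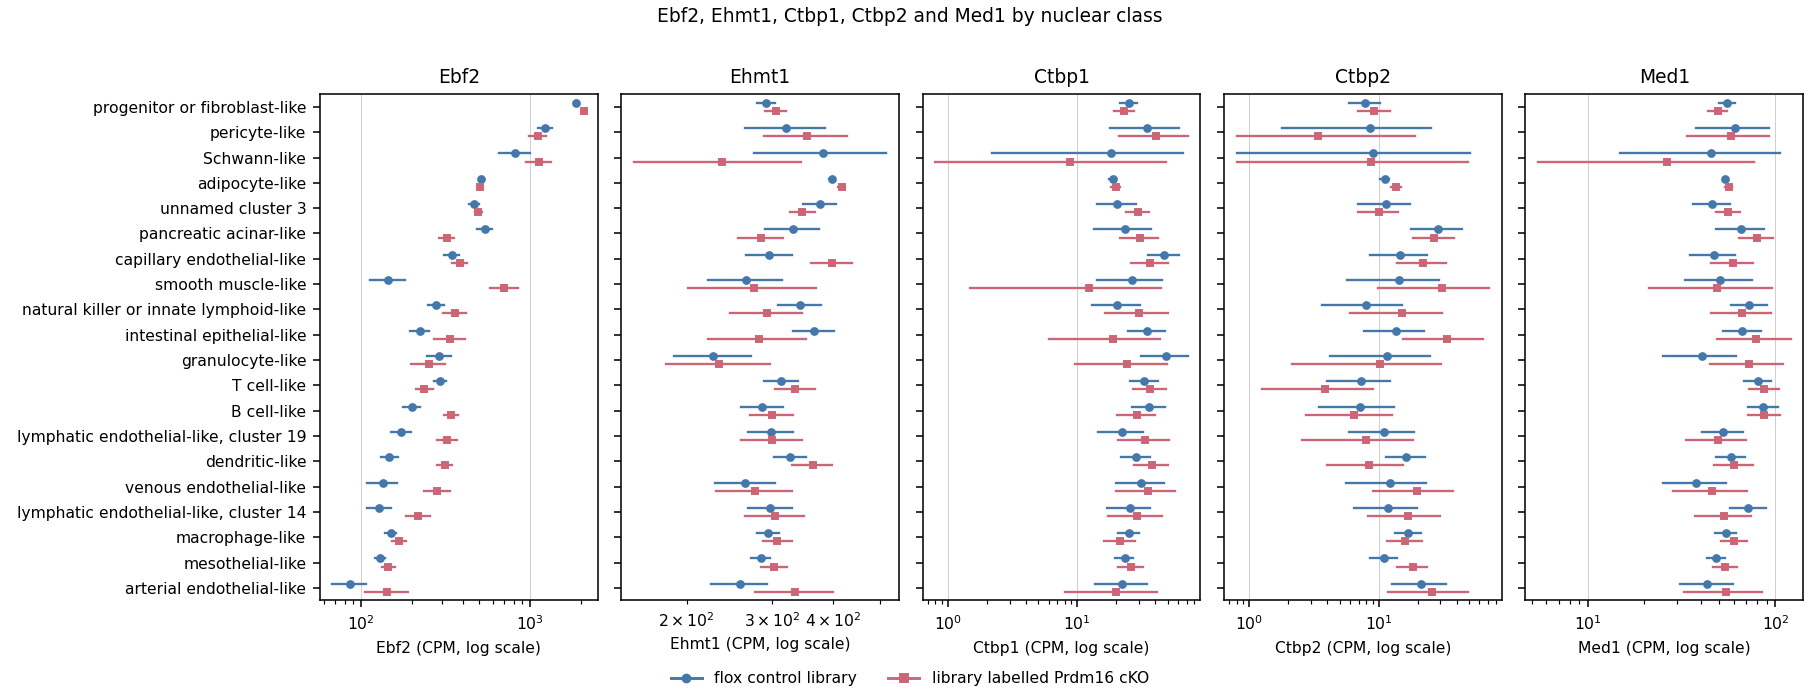
Levels of Ebf2, Ehmt1, Ctbp1, Ctbp2 and Med1 in CPM on log axes for each nuclear class, ordered by Ebf2; points are the libraries and lines are 95% Poisson intervals, which are clipped at the left where they reach below the axis. Ebf2 spans 1868 to 85.6 in the control, whereas Ehmt1 spans 397 to 227.

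In 9 classes both libraries held 100 nuclei or more. There 55 ratios of the 7 genes could be compared, and 7 were past 1.5-fold higher and 2 lower. Over all genes in the same classes, 6.59% of 87076 ratios were past it higher and 3.69% lower. The median ratio of the 7 genes in adipocyte-like nuclei was 0.070, beside 0.035 for all genes.

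Genes of the wider PRDM16 pathway were also compared in adipocyte-like nuclei, where 5.73% of all genes were past 1.5-fold higher and 3.13% lower. The ratios of these lists pool adipocyte-like clusters that the libraries filled unequally. Cluster 1 held 1654 control and 270 cKO-labelled nuclei, and cluster 2 held 679 and 1154. The part of this cluster make-up in the list ratios was not tested. Of 11 DNA-binding partners and adipogenic factors, 7 had ratios above 0, 4 below and none past 1.5-fold, with a median of 0.075. Pparg, the master regulator of fat cells, was 2569 and 3144 CPM (0.29) and Esrra, a regulator of mitochondrial genes, 67.3 and 86.6 (0.36). Zfp423, which holds back the beige programme, was 451 and 335 (−0.43), and Ebf1, a relative of Ebf2, 4325 and 3656 (−0.24). Of 9 coactivators and antagonists, 4 were above 0 and 5 below, with a median of −0.009. Ppargc1a, the thermogenic coactivator PGC-1α, was 94.2 and 109.6 CPM (0.22) and Ppargc1b 170.0 and 189.7 (0.16). Tle3, which competes with PRDM16 for PPARγ, was 70.2 and 44.4 (−0.66), the only one past 1.5-fold, and Ncoa2 438 and 391 (−0.16).

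Of 9 genes of the H3K9 methyltransferase and CtBP complexes, 5 were above 0, 4 below and none past 1.5-fold, with a median of 0.067. The deacetylase Hdac1 was 27.3 and 34.6 CPM (0.34) and Ehmt2, the partner of EHMT1, 53.2 and 61.7 (0.21). The H3K9 demethylase Kdm3a was 87.2 and 72.6 (−0.26) and Zeb2, a repressor that binds CtBP, 3731 and 3178 (−0.23). The ubiquitin ligase genes Cul2 and Appbp2, linked to PRDM16 turnover, had ratios of 0.056 and −0.064. Of 12 other Mediator genes, 4 were above 0 and 8 below, none past 1.5-fold, with a median of −0.014, from Med4 (0.29) and Med24 (0.12) to Med23 (−0.10) and Med12 (−0.11). Of 13 other PRDM genes, 10 had enough UMIs, 5 above and 5 below 0. Prdm8 was past 1.5-fold higher (0.72) from 32 and 35 UMIs, Prdm6 was at 0.32 and Prdm11 at −0.16.

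The genes most like each member in pattern were ranked by Pearson's r of log2(CPM + 1) over 34 points, 1 for each class and library with at least 50 nuclei. Points share libraries and background RNA, so r is a description among 10516 genes. For Prdm16 the closest were Itprid2 (r = 0.79, Spearman's rho = 0.27), Azin1 (0.73), Nbas (0.61), Slc35f1 (0.60) and Sugp1 (0.60). For Mecom they were Myrip (0.89), Ptprr (0.85), Kirrel3 (0.83), Lama3 (0.83) and Mcf2l (0.82), each highest in a vascular endothelial cluster. Mecom and Prdm16 themselves had r = 0.49 and rho = 0.40. Ebf2 was most like Svep1 (0.89), Abca8a (0.89) and Arhgap24 (0.85), all highest in progenitor or fibroblast-like nuclei. Ehmt1 was most like Ubr3 (0.79), Trit1 (0.77) and Cdk12 (0.76), and Med1 most like Brap (0.80), Rcc2 (0.79) and Ifi206 (0.76). Ctbp1 (Evl 0.61, Slc28a2 0.58, Rpl9 0.56) and Ctbp2 (Itprid2 0.61, Arhgef37 0.60, Lats1 0.58) had no closer gene.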

How the data were processed

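The deposited matrices hold raw counts of UMIs per gene and nucleus, made by the authors with Cell Ranger 6.1.2 on mm10 per the submitters' processing notes. Whether intronic reads and strand were used is not given in the sources used here. Sample labels name mesenteric fat and nuclear RNA, and were followed where the series title names thoracic and abdominal fat. The control held 12060 barcodes and the cKO-labelled library 8086, 28 of them present in both.

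Nuclei with at least 500 UMIs, 300 genes and under 5% mitochondrial UMIs were kept (449 and 217 removed). Scrublet's own threshold marked 3.87% and 0%, so the highest scores were removed at 0.8% per 1000 nuclei (1079 and 495). The 17906 kept nuclei (medians 7035 and 6522 UMIs) were clustered in scanpy 1.11.5 without the 7 genes (2000 variable genes, 30 components, 20 neighbours, leidenalg 0.10.2 at resolution 1.0), giving 29 clusters. Names needed 3 markers in 5% of nuclei at 2 times the other clusters, and differences from other accounts may come from these rebuilt names. After the clusters were seen, 2 rules were added. Cluster 3 (led by Lrp1b and Grik1) passed 8 of 12 adipocyte markers but stayed unnamed for its low depth, and cluster 19 was called lymphatic. Sub-clusters were made at resolution 0.5.

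Counts were summed per class and library. CPM has exact Poisson intervals, ratios exact conditional binomial ones and shares exact Clopper-Pearson ones. Ratio intervals were tried on simulated Poisson counts, which hold no extra spread between nuclei and so cannot check the intervals against it. No p-value was computed. Ratios needed 100 nuclei in each library for counting calls, and named clusters below that are given as values. The members and lists were chosen with earlier results of these data known. All 7 genes are named, with the 2 highest and 2 lowest of each pathway list and the 5 (Prdm16, Mecom) or 3 closest genes in pattern. Some genes that this rule names are not reported here. Alternatives covered scaling, weighting, depth, free RNA, resolution, separate clustering, doublets, the mitochondrial filter and the genes used for clustering.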

Additional observations from a re-analysis of the deposited data

Results flagged for a closer look

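The log2 ratio of Prdm16 between the libraries was 0.462 in adipocyte-like nuclei and −0.915 in vascular endothelial-like nuclei, so the same contrast pointed in opposite directions in 2 classes. The difference was not tested, since each genotype had 1 library. Arterial nuclei were 20.9% of control and 15.4% of cKO-labelled vascular endothelial-like nuclei, and with both libraries at the cluster shares of the control the vascular ratio was −0.258.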

How the results depend on the processing

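No paired analysis was possible because each genotype had 1 library, and no replicate could be left out for the same reason. The pooled vascular Prdm16 ratio stayed below 0 under all 15 alternatives run (−1.021 to −0.166). It was −0.304 as a mean of CPM per nucleus, −0.166 with nuclei thinned to 1000 UMIs and −0.638 with no doublet removal. Alternatives added after seeing the data gave −0.559 without the arterial cluster, −0.503 without the sub-clusters led by adipocyte and macrophage genes and −0.258 at the control's cluster shares. The pooled vascular Mecom ratio also stayed below 0 under 15. It was −0.537 with TMM factors, −0.256 as a mean per nucleus, −0.308 thinned, −0.532 with each library clustered alone, −0.435 with no doublet removal, −0.367 at double the doublet rate and −0.568 under 1% mitochondrial UMIs. Added alternatives gave −0.384 with cluster 19 counted as vascular, −0.119 without the 2 sub-clusters and −0.189 at the control's cluster shares. Thinning reversed the Prdm16 ratio in adipocyte-like nuclei (−0.170) and in arterial nuclei (0.244, from 91 and 51 UMIs) and the Mecom ratio in adipocyte-like nuclei (0.125). That Mecom ratio was also 0.029 with cluster 3 counted as adipocyte-like, an added alternative. In arterial nuclei Prdm16 was −0.969 at resolution 0.5, where the cluster grew to 330 and 220 nuclei, and Mecom was −0.090 with TMM, −0.098 thinned, −0.547 at resolution 0.5 and −0.258 with no doublet removal. An arterial cluster was not resolved under 1% mitochondrial UMIs, nor in the control clustered alone. The 9 ratios past 1.5-fold became 4 of 35 when thinned, beside 9.05% of all genes' ratios. Mecom in macrophage-like and Ebf2 in lymphatic endothelial-like nuclei stayed past it, Prdm16 in vascular and Ebf2 in vascular, B cell-like and dendritic-like nuclei did not, and 3 had too few UMIs (Prdm16 and Ctbp2 in mesothelial-like and Prdm16 in fibroblast-like nuclei). Ehmt1 in dendritic-like (0.820) and Med1 in T cell-like nuclei (0.758) were past it thinned only. The share of adipocyte-like Prdm16 that other classes would give was 20.4% and 14.3% by the lowest marker, an added alternative. Among other ratios, Mecom in B cell-like nuclei reversed at double the doublet rate (0.240), Ebf2 in T cell-like nuclei with separate clustering (0.212), Ebf2 in mesothelial-like nuclei with the adipocyte profile subtracted (−0.303) and under 1% mitochondrial UMIs (−0.018), and Ehmt1 in vascular nuclei with that profile subtracted (−0.020). Of these other values 485 kept within their counting interval and 65 moved past it. Beyond settings that name their own change, the cause was not tested. Depth limits Prdm16, with 940 and 861 UMIs in adipocyte-like nuclei, and Ctbp2, with 639 and 517. The Ctbp2 count may also be limited by the overlap with Fgfr2.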
